A study of Mus musculus with 24 samples.

Results

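Cholesterol synthesis enzymes are described here through 8 genes, Mvk, Mvd, Idi1, Fdft1, Cyp51, Msmo1, Nsdhl and Hsd17b7, in mouse liver of the inbred strains C57BL/6J and A/J. The genes were chosen by their rows in the tables of transcripts that differed between diets, so that their presence in a table, their fold changes and their adjusted p-values are a description and support nothing. In C57BL/6J liver all 8 genes had a row, with 9 of the 681 listed transcripts, since Mvd had 2. In A/J liver none of the 699 listed transcripts belonged to them. RNA-seq was run on 2 libraries of each strain and diet, 12 in all. The HF group ate high fat diet for 16 weeks. The Reversal group ate it for 8 weeks and returned to control diet for another 8 weeks, and the Control group ate control diet for all 16 weeks. The labels name no genetic change in either strain. Sex, age at harvest and the make-up of the diets are not given in the sources used here, nor is sequencing depth. Whether the 2 libraries of a group stem from different animals is not stated, so that p-values cover the spread of these libraries alone, and that spread may be technical.

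Cholesterol is built from acetyl-CoA. The mevalonate pathway first makes isoprenoid units, these are joined to squalene, and squalene is closed to lanosterol, which is trimmed and reduced to cholesterol. Liver is a main site of this synthesis. Sterol shortage in the endoplasmic reticulum releases the transcription factor SREBP2, encoded by Srebf2, which raises transcription of most enzymes of the chain together, while sterol from food holds it back. The 8 genes cover 3 stretches of the chain: mevalonate to isoprenoid units (Mvk, Mvd and Idi1), the step to squalene (Fdft1), and removal of methyl groups from the sterol ring (Cyp51, Msmo1, Nsdhl and Hsd17b7).

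The expression tables hold no value per library or per diet. For each transcript they give a mean level over libraries in normalized counts, a log2 fold change with its standard error (SE), a likelihood ratio statistic for any difference among the 3 diets, and an adjusted p-value. The fold change compares 2 of the 3 diets, which the tables do not name, so that a negative value is read neither as down nor as up on high fat diet. All fold changes of a table belong to the same contrast, and equal signs therefore mean that the same diet of the pair had the lower point estimate. Where a fold change is small against its SE, its sign does not settle which diet was lower. In liver pieces, fewer cells of a type and less RNA per cell cannot be told apart. Mean levels of different genes are not compared, because transcript length was not taken into account.

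In C57BL/6J liver all 8 genes had a negative fold change in the authors' deposited table, from -0.68 for Idi1 to -0.11 for Mvk, with a median of -0.39. Negative values were found in 193 of all 461 genes listed (41.9%), and the median of these 461 was 0.12. The table lists 3.46% of the 19658 transcripts tested, and those with a negative fold change are 1.36%. Since the rule for the members used this contrast, nothing is read from these counts. In 5 of the 8 genes 0 lay outside the normal 95% interval of the fold change, against 287 of the 461 (62.3%). Fold changes next to each other in size differed by less than 1 SE at every place in the order of the 8 genes. The ends of the order, Idi1 and Mvk, differed by 0.57 on the log2 scale, with an SE of 0.22 for each.

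**Figure D1:**
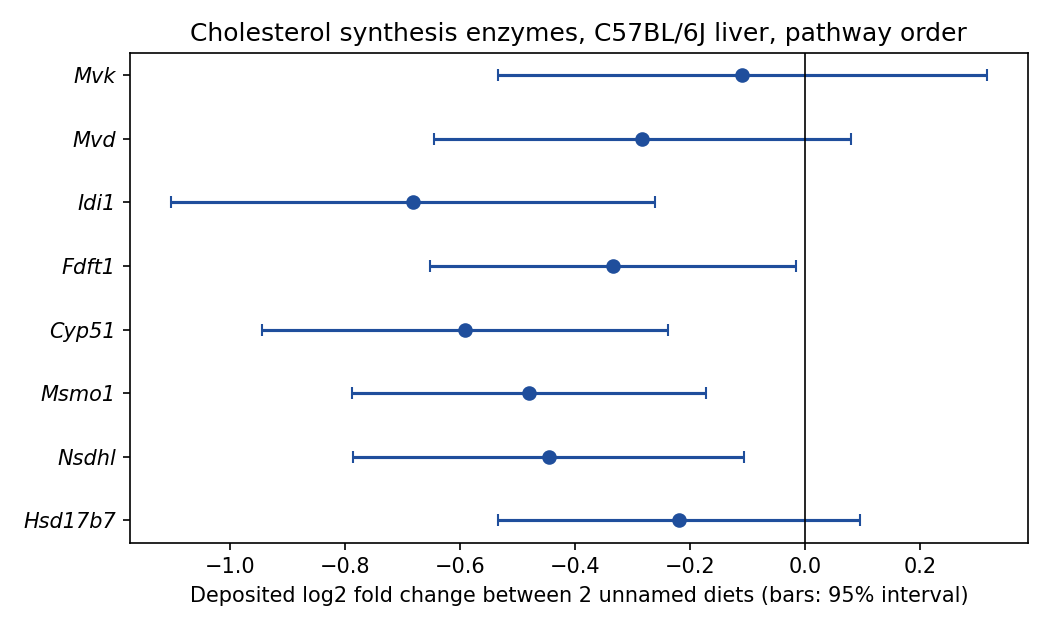
Log2 fold change between 2 unnamed diets in C57BL/6J liver, from the authors' deposited table, on the horizontal axis, for the 8 genes in pathway order from top to bottom; bars are 95% intervals. All 8 points lie below 0, and the bars of Mvk, Mvd and Hsd17b7 cross it.

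Much of the difference between diets lay outside that contrast. The statistic over 3 diets can be split into the squared ratio of fold change to SE, which belongs to the contrast, and a remainder, which belongs to the diet outside it. With 2 libraries in every group and equal precision in each diet, the remainder gives the distance of the outside diet from the midpoint of the contrasted pair, as the square root of 0.75 times the remainder, times the SE of the fold change. The side on which the outside diet lies is not known. The 3 gaps between diets follow without it: the fold change itself, and the gaps of the outside diet to the nearer and to the farther diet of the pair, each with the SE of the fold change. These gaps rest on an approximation, since the remainder came out below 0 in 36 of the 681 transcripts, with a lowest value of -3.26. They are given as sizes, with no test.

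By its point estimate the outside diet lay beyond both contrasted diets, either above or below them, in each of the 8 genes and in 327 of all 461 (70.9%). The 95% interval of its gap to the nearer contrasted diet left out 0 in 6 of the 8, and in 208 of the 461 (45.1%). In Cyp51 and Nsdhl that interval held 0, so that for these genes the outside diet cannot be placed apart from the nearer diet of the pair. The remainder made up between 59.4% (Nsdhl) and 99.2% (Mvk) of the statistic, with a median of 87.1% over the 8 genes and 64.1% over all 461. The distance of the outside diet from the midpoint ran from 0.47 to 1.09 on the log2 scale, with a median of 0.81, against a median of 0.46 over all 461 genes. It was more than 3 times its SE in 8 of 8 genes and in 274 of 461 (59.4%). The widest gap between any pair of diets was at least 1 on the log2 scale in 4 of the 8 genes, Idi1, Msmo1, Mvk and Mvd, and in 114 of 461 (24.7%). A strong statistic was part of how genes came into the table, and these shares describe the genes without setting them apart.

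**Figure D2:**
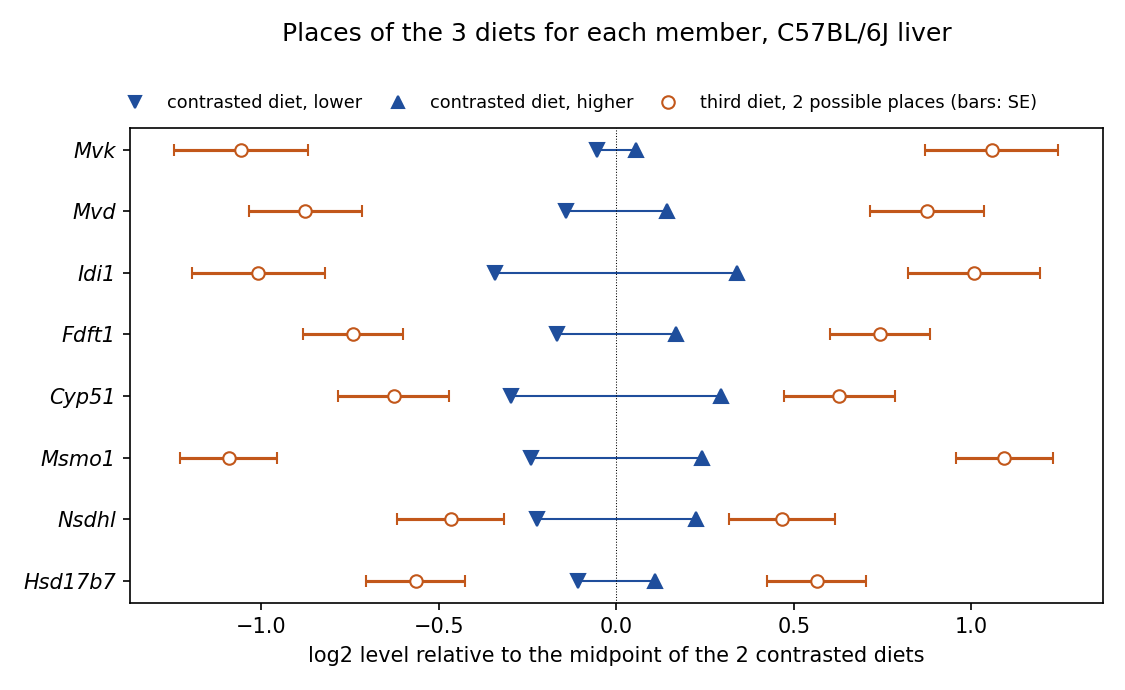
Places of the 3 diets for the 8 genes in C57BL/6J liver, as log2 levels relative to the midpoint of the contrasted pair (horizontal axis), worked out from the authors' deposited table. Blue triangles mark the lower and the higher diet of the pair; orange circles mark both possible places of the outside diet, with bars of 1 SE. The circles lie outside the triangles in all 8 genes, from 0.47 from the midpoint in Nsdhl to 1.09 in Msmo1, and stand closest to a triangle in Nsdhl and Cyp51.

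Mvk encodes mevalonate kinase, which adds the first phosphate to mevalonate. Its mean level was 699 normalized counts, and its fold change of -0.11 ± 0.22 (SE) was the smallest of the 8 in the authors' deposited table. The interval ran from -0.53 to 0.32. Its statistic was nonetheless 31.8 (DESeq2, adjusted p 2.06e-05) in the authors' deposited table, and 31.6 of it was left as the remainder. The contrasted diets were thus not resolved from each other for this gene, and the outside diet stood 1.06 ± 0.19 from their midpoint. The widest gap was 1.11 ± 0.22, which is 2.16-fold.

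Mvd encodes mevalonate diphosphate decarboxylase, which makes isopentenyl diphosphate, the isoprenoid unit itself. The coding transcript NM_138656 had a mean of 1414 normalized counts, a fold change of -0.28 ± 0.19 and a statistic of 32.2 (DESeq2, adjusted p 1.83e-05) in the authors' deposited table. The noncoding transcript NR_028354 had 1458 normalized counts, -0.26 ± 0.19 and 31.3 in the authors' deposited table. Transcripts of one gene share reads, so that the second adds no separate evidence. Mvd came close to Mvk in shape, with a gap of 0.73 from the outside diet to the nearer and 1.02 to the farther contrasted diet, each ± 0.19.

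Idi1 encodes isopentenyl diphosphate isomerase, which makes the partner molecule that starts each isoprenoid chain. It had a mean of 7045 normalized counts and the largest fold change of the 8, -0.68 ± 0.22, with an interval from -1.10 to -0.26, in the authors' deposited table. Its statistic was 39.4 (DESeq2, adjusted p 7.32e-07) in the authors' deposited table, of which 74.5% was remainder. All 3 diets were apart in Idi1: the pair by 0.68, the outside diet from the nearer of the pair by 0.67 and from the farther by 1.35, each ± 0.22. That widest gap, 2.55-fold, was the largest among the 8 genes and the 59th largest of 461.

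Fdft1 encodes squalene synthase, which joins a pair of farnesyl diphosphate molecules in the first step that leads to sterols alone. It had a mean of 5339 normalized counts and a fold change of -0.33 ± 0.16 in the authors' deposited table, with an interval from -0.65 to -0.01 that only just left out 0. The statistic was 32.0 (DESeq2, adjusted p 1.97e-05) in the authors' deposited table, close to those of Mvk and Mvd. The outside diet stood 0.58 from the nearer and 0.91 from the farther contrasted diet, each ± 0.16.

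Cyp51 encodes lanosterol 14-alpha demethylase, the cytochrome P450 that opens the work on the sterol ring. It had a mean of 6128 normalized counts, a fold change of -0.59 ± 0.18 and a statistic of 26.8 (DESeq2, adjusted p 0.00017) in the authors' deposited table. Here the contrast carried more of the difference than in most of the 8 genes, with 60.0% of the statistic as remainder. The outside diet stood 0.33 ± 0.18 from the nearer contrasted diet, with a 95% interval that holds 0, and 0.92 ± 0.18 from the farther.

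Msmo1, Nsdhl and Hsd17b7 encode the methylsterol monooxygenase, the dehydrogenase and the ketoreductase that together remove the methyl groups at carbon 4 of the sterol ring. Msmo1 had a mean of 5659 normalized counts, a fold change of -0.48 ± 0.16 and the highest statistic of the 8, 73.6 (DESeq2, adjusted p 1.18e-13), in the authors' deposited table. It ranked 10th of 461 genes by statistic. Its outside diet stood 0.85 from the nearer and 1.33 from the farther contrasted diet, each ± 0.16, and the wider of these gaps is 2.52-fold. Nsdhl had 3115 normalized counts, -0.45 ± 0.17 and the lowest statistic of the 8, 16.2 (DESeq2, adjusted p 0.0145), in the authors' deposited table. Its outside diet was 0.24 ± 0.17 from the nearer contrasted diet, again with a 95% interval that holds 0, and 0.69 ± 0.17 from the farther. Hsd17b7 had 2918 normalized counts, -0.22 ± 0.16 and 18.3 (DESeq2, adjusted p 0.00632) in the authors' deposited table, with an interval of the fold change from -0.53 to 0.10.

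The 3 enzymes of carbon 4 demethylation were thus spread over the range of the 8 genes. Msmo1 was near its top with a widest gap of 1.33, while Nsdhl and Hsd17b7 were at its foot with 0.69 and 0.67. The 3 genes from mevalonate to isoprenoid units had widest gaps between 1.02 and 1.35. In the order of widest gaps, Idi1 and Msmo1 differed by 0.02 and Nsdhl and Hsd17b7 by 0.02, far less than the SE of either. Gaps between neighbours were also under 1 SE from Mvk through Mvd and Cyp51 to Fdft1. They exceeded the smaller SE only between Msmo1 and Mvk (0.22) and between Fdft1 and Nsdhl (0.22), and Idi1 and Hsd17b7 at the ends differed by 0.68. The 8 genes share their libraries, so that the error of such a difference is not known and no test was run on it. By statistic the other 6 genes ranked 45th (Idi1), 71st (Mvd), 73rd (Fdft1), 76th (Mvk), 112th (Cyp51) and 220th (Hsd17b7), and Nsdhl 267th, of 461.

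**Figure D3:**
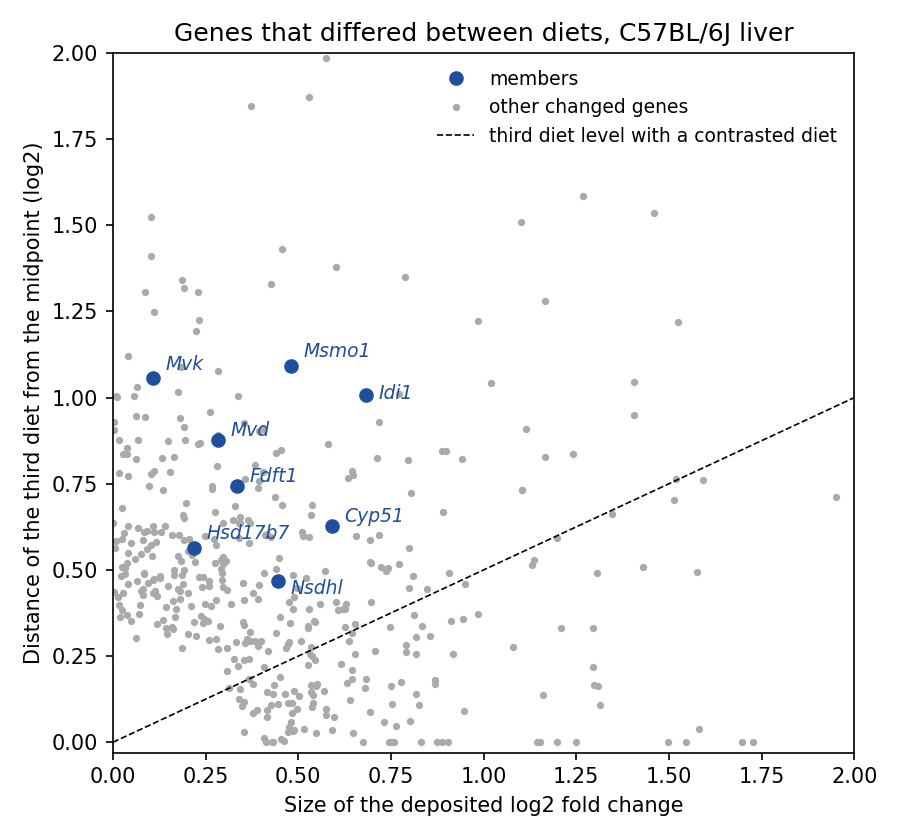
Size of the fold change from the authors' deposited table (horizontal axis) against the distance of the outside diet from the midpoint of the contrasted pair (vertical axis), both log2, for the 461 genes of the C57BL/6J table; a remainder below 0 is drawn at 0, and 21 genes lie beyond the axes. The points of the 8 genes (blue) lie above the dashed line, on which the outside diet is level with a contrasted diet, as do 327 of the 461.

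Of the 20 listed pathway genes that are reported here, the 8 described had a row in the C57BL/6J table, which lists 3.46% of transcripts tested. The list was written with earlier results of these data known, and the 8 were chosen by their rows. Nothing is therefore read from this count. The other 12, among them Hmgcs1, which makes the precursor of mevalonate, and Sqle and Lss, which turn squalene into lanosterol, had no row and so no value here. The table stops at an adjusted p of 0.0496 and a statistic of 12.7, and Nsdhl at 0.0145 was the gene of the 8 nearest to that limit.

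Srebf2, the SREBP2 gene, had a fold change of -0.16 ± 0.11 (DESeq2, adjusted p 0.00465) in the authors' deposited table. Abcg5 and Abcg8, which together form the sterol exporter, were positive in the authors' deposited table, at 0.71 ± 0.11 and 0.65 ± 0.12. For this pair the outside diet was 0.09 ± 0.11 and 0.07 ± 0.12 from the nearer contrasted diet, under 1 SE. Of 12 listed genes of fatty acid synthesis 2 had a row, Acacb and Me1, where the table lists 3.46% of all transcripts tested. The list was chosen with earlier results known, so that nothing is read from this count. Their fold changes were 0.26 ± 0.21 and 0.00 ± 0.15 in the authors' deposited table. For Me1 nearly the whole statistic of 52.3 was remainder.

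In A/J liver none of the 8 genes, and none of these 20 pathway genes, had a row in the table. That table lists 3.39% of 20591 transcripts tested and stops at an adjusted p of 0.0498 and a statistic of 12.8 (DESeq2). A gene without a row has no fold change or p here, so that a smaller difference between A/J diets, a larger spread between libraries or no test at all cannot be told apart, and a count at an unadjusted p cannot be given. The strains were not tested against each other, since the tables hold no values per library. Sterol regulators did have rows in A/J: Insig2, whose product holds SREBP in the endoplasmic reticulum, had a statistic of 66.5 and a fold change of -0.06 ± 0.10 in the authors' deposited table. Srebf1, the gene of the related factor SREBP1, had a statistic of 19.7 and -0.26 ± 0.18 in the authors' deposited table. Of the fatty acid synthesis list Scd1, Elovl5, Fads1 and Fads2 had rows, all with positive point estimates. In the authors' deposited table these were 0.17 ± 0.36, 0.23 ± 0.14, 0.37 ± 0.10 and 0.51 ± 0.13, in that order. The intervals of Scd1 (-0.54 to 0.88) and Elovl5 (-0.04 to 0.50) leave the signs of these genes unsettled.

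The tables list only changed transcripts and cannot show whether the tissue holds its defining markers. Of 6 hepatocyte markers Apoa1 alone had a row in C57BL/6J and none in A/J. Of 30 markers of 7 other cell types none had a row in C57BL/6J, where 3.46% of all transcripts tested are listed. In A/J, where 3.39% are listed, 4 had one. These were the macrophage genes Cd5l and Marco, the pancreas gene Cela1 and the erythroid gene Alas2. The counts hold for the markers picked. Other genes of these cell types were not counted and may have rows. Summed marker levels in each group were not analysed here, and their part in the results was not tested.

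The promoters of the 8 genes were not used in choosing them, and they are shown because SREBP2 is known to act on sterol genes together with NF-Y, which binds the CCAAT box, and Sp1, which binds the GC box. A RefSeq promoter table of GRCm38.p6, with windows from 250 bases before to 50 bases after the start, held 7 of the 8 genes; Fdft1 was not matched. The letters CCAAT, on either strand, were found in 7 of 7 windows, against 12289 of 32851 windows of the whole table (37.4%), 38.2% of windows of protein-coding genes and 45.4% of windows of genes in the C57BL/6J table. At least 2 copies were found in 6 of 7, against 11.7% of all windows and 18.5% of those of genes in the C57BL/6J table. At least 3 were found in 4 of 7, against 3.37% and 5.94%. The GC box GGGCGG, on either strand, was found in 7 of 7 windows, against 35.7% of all windows. The share was 46.2% for windows of protein-coding genes and 57.3% for those of genes in the C57BL/6J table. Windows with at least 2 GC boxes were 3 of 7 (42.9%), against 19.5% of all and 33.5% for genes in the C57BL/6J table. Those with at least 3 were 1 of 7 (14.3%), against 10.7% and 19.96%, and 14.7% for protein-coding genes. Member windows were richer in G and C, with a median of 62.3% and a range of 52.3 to 70.7%, against a median of 52.7% in all windows and 56.3% for protein-coding genes. No CCAAT copy overlapped a GC box. A match describes the letters and is not a binding site.

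The sterol response motif TCACNCCAC was found on neither strand in any of the 7 windows. It was in 1.24% of all windows and in 2.55% of those of genes in the C57BL/6J table. With 1 mismatch allowed it was found in 4 of 7, Cyp51, Hsd17b7, Msmo1 and Nsdhl. The share with 1 mismatch was 24.2% of all windows and 30.6% of those of genes in the C57BL/6J table. Of the matches in the 4 genes, 1, in Msmo1, overlapped a CCAAT copy. No exact match says only that these letters are not in the window.

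Below are the 250 bases before the start of Msmo1, with the highest statistic, of Idi1, with the widest gap, of Mvk, with the most CCAAT copies, and of Cyp51, with the fewest. Each is written 5′ to 3′ on the strand of its gene, and capitals mark CCAAT or, for a copy on the other strand, ATTGG. Msmo1 lies at chr8:64733579-64733828 on the minus strand, Idi1 at chr13:8885356-8885605 on the plus strand, Mvk at chr5:114444019-114444268 on the plus strand and Cyp51 at chr5:4104698-4104947 on the minus strand of GRCm38.p6, from RefSeq.
Msmo1: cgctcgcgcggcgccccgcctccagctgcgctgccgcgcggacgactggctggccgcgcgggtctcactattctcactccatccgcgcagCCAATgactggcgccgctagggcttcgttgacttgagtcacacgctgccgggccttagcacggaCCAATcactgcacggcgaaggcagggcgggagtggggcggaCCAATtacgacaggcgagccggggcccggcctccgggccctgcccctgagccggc
Idi1: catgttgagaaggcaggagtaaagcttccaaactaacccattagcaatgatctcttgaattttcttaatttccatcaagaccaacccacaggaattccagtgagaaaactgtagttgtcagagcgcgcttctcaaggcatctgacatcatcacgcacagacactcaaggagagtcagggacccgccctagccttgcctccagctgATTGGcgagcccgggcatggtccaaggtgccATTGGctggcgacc
Mvk: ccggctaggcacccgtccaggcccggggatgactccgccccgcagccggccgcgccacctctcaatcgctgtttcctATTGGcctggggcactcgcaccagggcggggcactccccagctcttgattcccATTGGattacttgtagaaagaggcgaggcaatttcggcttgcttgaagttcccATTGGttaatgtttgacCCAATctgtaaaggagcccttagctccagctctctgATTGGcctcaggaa
Cyp51: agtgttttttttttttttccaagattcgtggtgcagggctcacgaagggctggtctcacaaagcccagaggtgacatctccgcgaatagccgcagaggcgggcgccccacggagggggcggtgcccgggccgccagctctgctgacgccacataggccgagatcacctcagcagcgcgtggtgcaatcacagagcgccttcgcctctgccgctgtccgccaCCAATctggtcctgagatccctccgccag

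In Mvk 5 copies began between 173 and 14 bases before the start, 4 of them written as ATTGG. Msmo1 had copies that began 160, 96 and 55 bases before the start, and Idi1 had them at 45 and 14 bases. The copy of Cyp51 began 29 bases before the start. Hsd17b7, at chr1:169969206-169969455, had 3 copies, and Mvd, at chr8:122443423-122443672, and Nsdhl, at chrX:72918271-72918520, had 2 each in the same 250 bases. The widest gap was 1.11 in Mvk (5 copies), 1.33 in Msmo1 and 0.67 in Hsd17b7 (3 copies each). It was 1.35 in Idi1, 1.02 in Mvd and 0.69 in Nsdhl (2 copies each), and 0.92 in Cyp51 (1 copy). Genes with 3 copies, and genes with 2, thus held both large and small gaps. With 7 genes this is a description and no correlation was computed. Peaks of open chromatin at these genes were not analysed here, because the peak lists are in mm9 and gene positions in mm9 were not at hand.

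**Figure D4:**
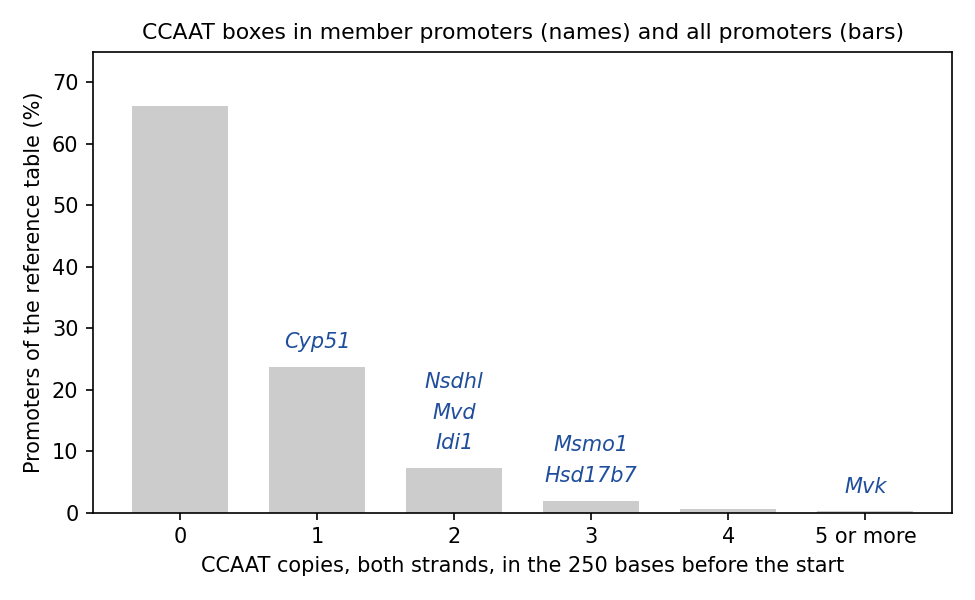
Share of the 32851 promoter windows of the RefSeq table (bars, vertical axis in percent) by the number of CCAAT copies on either strand in the 250 bases before the start (horizontal axis); names mark the 7 genes with a window at their own number of copies. Windows with no copy are 66.2% of all, and no gene of the 7 falls there.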

How the data were processed

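RNA-seq of C57BL/6J and A/J mouse liver on 3 diets, 2 libraries each, was used. Groups follow the titles. For Reversal, the control diet lasts 16 weeks by the diet tag and 8 weeks by the treatment protocol, which was followed. Named in the submitters' processing notes, without versions or roles, are Bowtie2, TopHat, DESeq2 and the build mm9. The members and gene lists were chosen with earlier results of these data known.

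Per the file headers, the authors deposited DESeq2 result columns for each strain: mean normalized count, log2 fold change and SE on the log2 scale, a score per transcript (the statistic), and p-value and adjusted p-value. The deposited p-value equals the chi-square tail with 2 degrees of freedom at the statistic, so the test is over 3 diets. The deposited tables list only transcripts with an adjusted p below 0.05. How many transcripts were tested follows from p, adjusted p and rank. A table's strain is known only from its name. No value per library is held, so the pair-wise fits planned for that case were not run, and no count per library or depth can be given.

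Symbols were matched through a RefSeq gene table of GRCm38, for names only (675 of 681 and 690 of 699 transcripts). Of several transcripts of a gene, the one of smallest p was taken. Named genes were the 8 members and every gene of 3 lists (20 of cholesterol synthesis, 12 of sterol regulation, 12 of fatty acid synthesis) with a row; 4 further genes of the lists are not reported here, and not every gene is printed. Distances between diets were computed in Python 3.11.15 with pandas 2.3.3 and numpy 2.4.6. The formula was also run on simulated counts, with the same spread in every diet and all transcripts kept. That run cannot check equal precision or the effect of listing only changed transcripts, and its outcome is not given here. Motifs were searched as exact letters on both strands. Alternatives were a stricter threshold, Bonferroni adjustment, other interval widths, another transcript per gene, unequal precision of the outside diet, and other motif settings.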

Additional observations from a re-analysis of the deposited data

How the results depend on the processing

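All 8 members kept a row in C57BL/6J at an adjusted p of 0.05, 7 did at 0.01, and 6 passed a Bonferroni adjustment over the transcripts tested; in A/J the count was 0 under each of these. Of the pathway list 8 genes passed at 0.05 and 7 at 0.01 in C57BL/6J. At 0.05 the C57BL/6J table lists 3.46% of all transcripts tested, and the shares at the stricter limits were not worked out. The members were chosen by these rows, so that nothing is read from their counts. With a 99% interval in place of 95% the fold change left out 0 in 3 members and not in 5, since Nsdhl and Fdft1 no longer did so. The median distance of the outside diet was 0.81 on the log2 scale with equal precision in each diet, 1.10 with an SE of the outside diet 1.5 times larger, and 0.64 with one 1.5 times smaller, as the formula implies; in each case its point estimate lay beyond both contrasted diets in 8 of 8 members. The sterol response motif was in 4 member promoters with 1 mismatch allowed, in place of 0, because the search is wider. The 14 other alternative values of the 18 kept their direction and stayed within 1.5 times of the reported value, among them a count of the CCAAT box over upstream bases only, which was chosen after seeing the data.

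No paired analysis was possible because the tables hold no value per library. For the same reason leaving out each replicate was not run. Sequencing depth is unknown, and the unnamed diets of the fold change limit every direction in the text.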
